A study of Mus musculus with 78 samples.

Results

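Klf15, Klf9, Zbtb16, Tsc22d3, Fkbp5, Sgk1, Cebpd, Depp1 and Cirbp are genes that glucocorticoids or other stresses induce. They were taken as every probe set whose single symbol in the platform annotation is one of these names. This gave 24 probe sets for 9 genes, of 34958 single-symbol probe sets for 18194 genes on the array. A filter on low signal kept 23 of the 24, and the brightest probe set of each gene stands for it. The study profiled flank tissue of female athymic nude mice (Crl:NU(NCr)-Foxn1nu), 4 to 6 weeks old, on 78 Affymetrix arrays. An adenovirus carrying VEGF-A164 was injected into the skin of flank and ears of the same mice to grow tumour-surrogate vessels. Mice received G6 at 10 mg per kg, DC101 at 20 mg per kg or no treatment (NT), and each of these was sampled at days 5, 20 and 60. DC101 is a rat antibody to mouse VEGFR2; both agents are listed among antibodies against VEGF receptors, and the target of G6 is not named. The reference was flank labelled control at day 0. Each of the 10 groups held 8 arrays, except DC101 at day 60 with 6. No group received an empty vector or a control antibody, and the labels do not say whether the control flank was injected or whether the day counts treatment or harvest. Nude mice lack a thymus and have few mature T cells. Groups had 5 animals or more by the stated design. Which animal each array came from is not given, so arrays of a group may come from the same mouse, and p-values may then be too small. With group means taken off, arrays paired by adjacent running number in the titles correlated at a mean r of 0.08 (39 pairs). Other pairs of the same group were at -0.18 (228 pairs). Whether adjacent arrays share a mouse was not tested.

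Glucocorticoids such as corticosterone bind a receptor, Nr3c1, that waits in the cytoplasm with heat shock proteins and their co-chaperones. The bound receptor enters the nucleus, binds palindromic DNA elements and switches on a set of genes shared by many tissues, among them the circadian gene Per1 and the metallothioneins Mt1 and Mt2. In skin this pathway limits inflammation and shapes the epidermis, and in skeletal muscle it drives protein breakdown during fasting and illness. The 9 genes were chosen with their levels in these groups known. Their levels and differences are therefore given as a description with standard errors (SE) and without a test. Tests are given for other genes, in lists that were also drawn up with earlier results of these data known.

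The promoters were searched for sequence elements tied to this regulation. RefSeq windows (GRCm38.p6, 250 bases before to 50 after each start) were at hand for 7 of the 9 genes, 15 windows in all. The full glucocorticoid response element, here the arms AGAACA and TGTTCT 3 bases apart, reads the same on both strands and lay in 3 of 32851 windows of the same length, 0.00913%. One of these 3 belongs to Sgk1. A single arm, AGAACA or TGTTCT, lay in 18.97% of windows and also in windows of Sgk1 and Tsc22d3. This count includes the full element. The E-box CACGTG, read by clock and Myc-family factors, lay in 7.15% of windows, and among the genes here in one window each of Klf15, Fkbp5 and Sgk1. The forkhead sequence GTAAACA (or TGTTTAC), read by FOXO factors, lay in 3.65% of windows and in that of Klf9. No window of these genes held TTATGTAA (D-box), TGACGTCA (cyclic AMP element) or the heat shock element, each searched on both strands and found in 0.938%, 1.79% and 0.603% of windows. A match is a run of letters, not a bound site. The 3 windows below are shown because they hold the full element, the most E-boxes (3) and the forkhead sequence, each in capitals. They lie at chr10:21993640-21993939 (Sgk1), chr6:90462326-90462625 (Klf15) and chr19:23140976-23141275 (Klf9), all on the plus strand.
Sgk1, full element: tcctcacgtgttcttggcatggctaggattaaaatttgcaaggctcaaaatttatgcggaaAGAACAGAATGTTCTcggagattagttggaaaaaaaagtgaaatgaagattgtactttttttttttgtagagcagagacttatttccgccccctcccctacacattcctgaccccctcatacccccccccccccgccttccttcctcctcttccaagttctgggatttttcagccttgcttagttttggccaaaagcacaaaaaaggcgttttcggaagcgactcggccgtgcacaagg
Klf15, E-boxes: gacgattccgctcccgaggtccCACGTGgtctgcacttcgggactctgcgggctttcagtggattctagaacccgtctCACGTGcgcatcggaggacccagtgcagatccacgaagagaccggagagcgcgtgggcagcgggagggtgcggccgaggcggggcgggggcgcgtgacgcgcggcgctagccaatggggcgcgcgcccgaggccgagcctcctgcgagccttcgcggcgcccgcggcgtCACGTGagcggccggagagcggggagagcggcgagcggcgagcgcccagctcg
Klf9, forkhead sequence: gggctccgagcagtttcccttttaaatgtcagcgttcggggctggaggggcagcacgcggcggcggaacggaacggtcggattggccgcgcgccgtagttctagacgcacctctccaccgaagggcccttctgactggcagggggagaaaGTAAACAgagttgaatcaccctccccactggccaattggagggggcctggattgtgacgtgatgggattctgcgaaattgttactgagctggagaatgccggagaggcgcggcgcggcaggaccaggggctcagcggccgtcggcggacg

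Levels below are log2(signal + 16), and for each group the lowest, median and highest array are given. Differences are between group means on the same scale. No pair of arrays correlated above 0.972, and all were scaled alike by the authors. Earlier work on these arrays set 6 apart from their groups: G6 arrays 13 and 14 at day 5, NT arrays 51 and 52 at day 20 and NT arrays 77 and 79 at day 60. The 3' to 5' signal ratio of the Actb control probes, which is higher where RNA is more degraded, had medians of 2.22 in G6, 1.302 in DC101 and 1.88 in NT tissue at day 60, against 1.31 in control tissue. Its medians in G6, DC101 and NT tissue were 1.76, 1.29 and 1.62 at day 5. They were 1.45, 1.74 and 1.42 at day 20, so DC101 tissue had its highest median at day 20. At day 5 the Gapdh ratio was 1.24 with G6, 0.847 with DC101 and 1.03 without treatment, against 0.796 in control tissue. Skeletal muscle markers were bright in every group. In bulk tissue, fewer cells of a type and less RNA per cell cannot be told apart.

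Klf15 is a Kruppel-like factor that steers amino acid and lipid use in muscle, liver and fat. At day 5 its level was 8.86, 9.45 and 10.11 (lowest, median, highest of 8 arrays) in G6 tissue and 9.20, 9.81 and 10.56 in DC101 tissue, against 4.99, 6.47 and 6.88 in NT tissue. Control tissue, set against that NT group in turn, had 10.12, 10.72 and 11.41. The NT arrays of day 5 overlapped none of these 3 groups, and all 8 lay below the filter level, so differences from them are bounds. Against NT tissue at day 5, Klf15 was at least 2.06-fold higher with G6 and at least 2.70-fold higher with DC101, and NT tissue at day 5 was at least 4.84-fold lower than control. The fitted differences were 3.24 (SE 0.34), 3.63 (SE 0.34) and -4.48 (SE 0.34), with every array of the first group on that side of the second group's mean.

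At the later days the NT level of Klf15 was higher than at day 5 but still below control. It was 8.43, 8.99 and 10.28 at day 20 and 7.61, 9.29 and 10.21 at day 60, differences of -1.60 and -1.53 from control (SE 0.34 each). DC101 tissue at day 60 had 9.59, 10.40 and 10.79 (6 arrays), 1.16 (SE 0.37) above NT tissue of that day, with ranges that overlapped. With both RNA ratios in the model that difference was 0.35. DC101 array 72 at day 20 read 11.61, above every control array, beside a group median of 9.23. In the order of the 10 group means, from control (10.72 ± 0.48, SD) down to G6 at day 20 (8.97 ± 0.76), no neighbours differed by more than the larger SD of the pair. NT tissue at day 5 came last, and as all its arrays were below the filter level its distance from the others is not known.

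**Figure D1:**
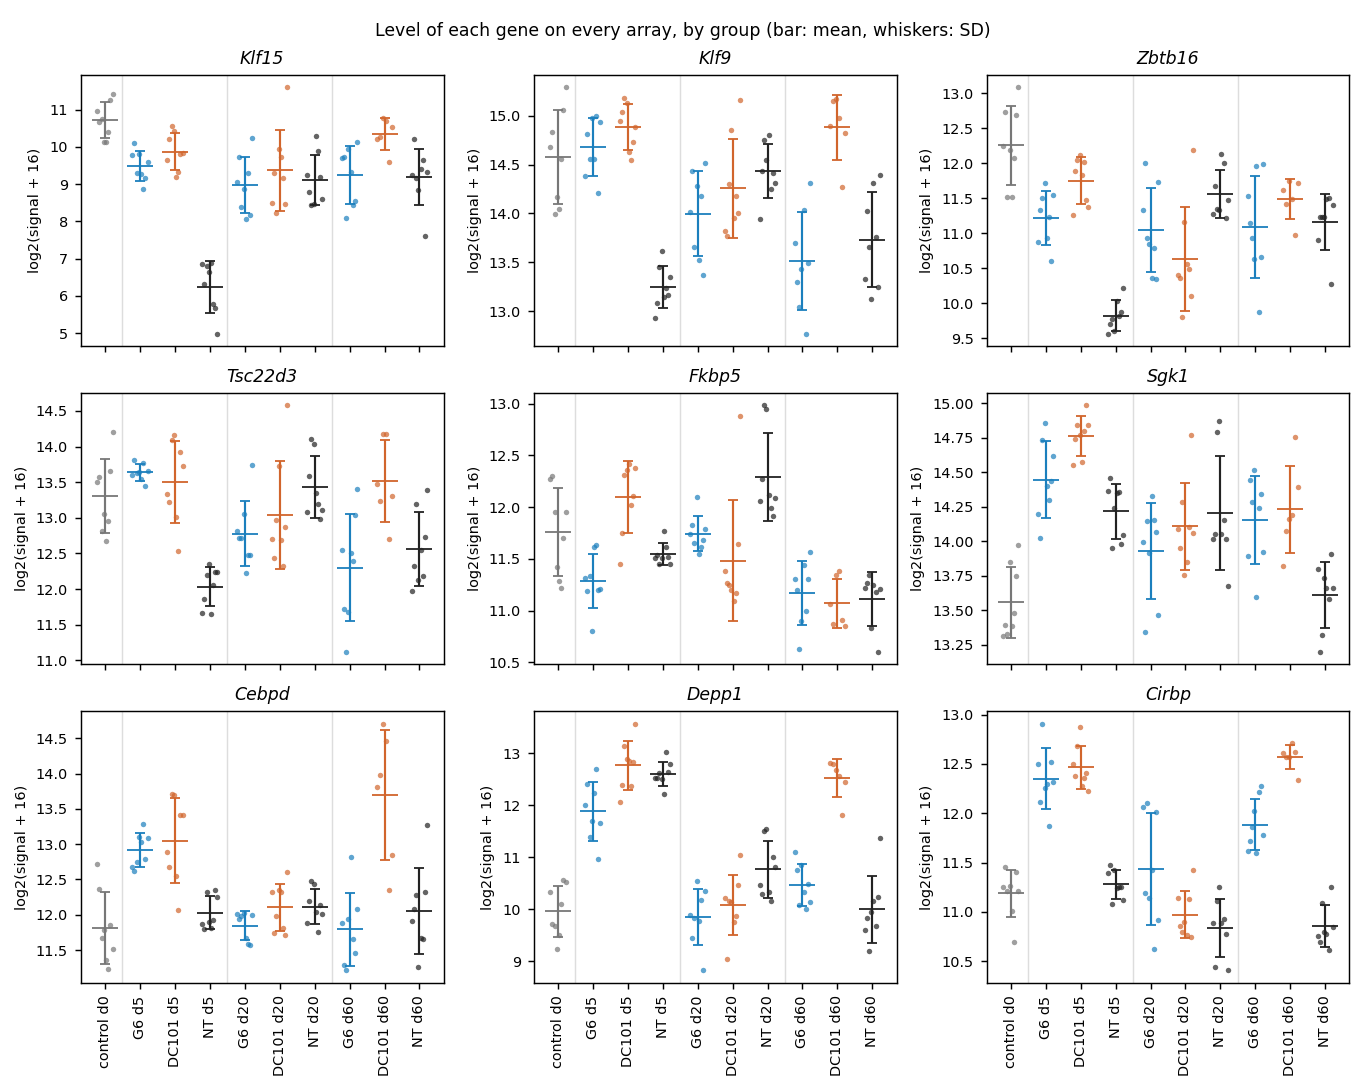
Level, log2(signal + 16), of each of the 9 genes on every array, by group in day order, with the mean (bar) and SD (whiskers). NT tissue at day 5 is the lowest group for Klf15, Klf9, Zbtb16 and Tsc22d3, and Depp1, Cirbp and Cebpd stand high in DC101 tissue at days 5 and 60.

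Klf9 is a Kruppel-like factor induced by glucocorticoid and thyroid hormones. At day 5 it stood at 14.21, 14.68 and 14.99 with G6 and at 14.54, 14.91 and 15.18 with DC101, against 12.93, 13.20 and 13.61 in NT tissue. Control tissue had 13.99, 14.62 and 15.29, and NT tissue at day 5 differed from it by -1.33 (SE 0.19) without overlap. The G6 and DC101 groups lay 1.43 and 1.64 above NT tissue (SE 0.19 each), in 8 of 8 arrays and without overlap. All 16 of these arrays lay inside the control range. DC101 tissue at day 60 had 14.27, 14.94 and 15.17, against 13.12, 13.71 and 14.40 in NT tissue, a difference of 1.15 (SE 0.21). G6 tissue at day 60 differed from NT by -0.22 (SE 0.19), and at day 20 the antibody differences were -0.43 with G6 and -0.17 with DC101. No step in the order of the 10 group means exceeded the larger SD of its pair.

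Zbtb16 (PLZF), a zinc-finger factor that glucocorticoids induce in several human cell types, followed Klf15 and Klf9 at day 5. At day 5 it had 10.61, 11.28 and 11.71 in G6 tissue and 11.27, 11.86 and 12.12 in DC101 tissue, against 9.57, 9.80 and 10.22 in NT tissue. The differences from NT tissue were 1.39 and 1.93 (SE 0.24 each), without overlap. Control tissue had 11.52, 12.22 and 13.09, and NT tissue at day 5 differed from it by -2.43 (SE 0.24). At day 20 the DC101 group stood below the NT group, at 9.80, 10.44 and 12.19 against 11.22, 11.41 and 12.13, a difference of -0.92 (SE 0.24). The 12.19 is array 72, without which that difference was -1.15. At day 60 the DC101 difference was 0.33 (SE 0.26), smaller than the 1.15 of Klf9.

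Tsc22d3 encodes GILZ, a leucine-zipper protein that carries part of the anti-inflammatory action of glucocorticoids. At day 5 its level was 13.44, 13.64 and 13.81 with G6 and 12.53, 13.53 and 14.15 with DC101, against 11.64, 12.13 and 12.35 in NT tissue. The differences were 1.61 and 1.47 (SE 0.26 each). NT tissue at day 5 differed by -1.27 (SE 0.26) from control tissue, which had 12.67, 13.28 and 14.20. None of these day 5 ranges overlapped that of NT tissue. At day 60 it was 12.70, 13.39 and 14.18 with DC101, against 11.98, 12.43 and 13.39 in NT tissue, a difference of 0.95 (SE 0.28) that was 0.44 with the RNA ratios as covariates. The 8 G6 arrays of day 5 were tight (SD 0.12), and those of G6 at day 60 were spread (SD 0.76).

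Fkbp5, a co-chaperone that lowers the receptor's affinity for hormone and is itself induced by the receptor, took a different course. At day 5 its level was 10.80, 11.26 and 11.63 with G6 and 11.45, 12.21 and 12.41 with DC101, against 11.45, 11.51 and 11.77 in NT tissue. The differences from NT were -0.26 and 0.56 (SE 0.17 each), so that G6 lay 0.81 (SE 0.17) below DC101. The NT arrays of day 5 lay inside the control range of 11.22, 11.83 and 12.30. NT tissue at day 20 was the highest group, at 11.91, 12.10 and 12.98, or 0.53 (SE 0.17) above control. Its 2 highest arrays were 51 (12.98) and 52 (12.94), and without the 6 arrays set apart in earlier work the difference was 0.31. At day 60 all 3 groups were low, with means between 11.07 and 11.17, and the antibody differences were 0.06 with G6 and -0.04 with DC101.

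Sgk1, a kinase that keeps sodium channels at the membrane and answers to mineralocorticoids, glucocorticoids and osmotic stress, was lowest in control tissue. In NT tissue it was 13.95, 14.30 and 14.46 at day 5, 13.68, 14.05 and 14.87 at day 20, and 13.20, 13.66 and 13.91 at day 60, against 13.31, 13.44 and 13.97 in control tissue. The differences were 0.66, 0.65 and 0.05 (SE 0.14 each). DC101 tissue at day 5 was the highest group, at 14.56, 14.78 and 14.99, 0.55 (SE 0.14) above NT tissue and without overlap. At day 60 both antibody groups stood above NT tissue, by 0.55 (SE 0.14) with G6 and 0.63 (SE 0.16) with DC101.

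Cebpd, a C/EBP transcription factor induced by glucocorticoids and by inflammatory cytokines, was close to control in all 3 NT groups, with differences of 0.21, 0.30 and 0.24 (SE 0.23 each). At day 5 it was 12.61, 12.91 and 13.29 with G6 and 12.06, 13.15 and 13.71 with DC101, against 11.80, 11.91 and 12.35 in NT tissue. The differences were 0.89 and 1.02 (SE 0.23 each), and only the G6 arrays were clear of the NT range. DC101 tissue at day 60 had 12.35, 13.90 and 14.71, against 11.26, 11.996 and 13.27 in NT tissue, a difference of 1.64 (SE 0.25). Of the 10 groups this one had the largest SD for Cebpd (0.92): arrays 89 to 92 read 13.81 to 14.71, and arrays 93 and 94 read 12.35 and 12.84. At day 20 the differences were -0.27 with G6 and -0.01 with DC101.

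Depp1, a FOXO target first described as induced by progesterone, was high in all 3 groups at day 5. It stood at 10.97, 11.85 and 12.69 with G6 and at 12.06, 12.84 and 13.57 with DC101, against 12.22, 12.57 and 13.02 in NT tissue. The differences were -0.72 and 0.16 (SE 0.25 each). Control tissue had 9.24, 9.91 and 10.56, and NT tissue at day 5 lay 2.65 (SE 0.25) above it without overlap. At day 60 DC101 tissue stood at 11.82, 12.62 and 12.82, against 9.19, 9.88 and 11.36 in NT tissue. That difference was 2.53 (SE 0.27), in 6 of 6 arrays and without overlap, and it was 2.35 with the RNA ratios as covariates. G6 at day 60 lay 2.06 (SE 0.27) below DC101, also without overlap. Depp1 thus stood high in DC101 tissue at days 5 and 60 and not at day 20 (9.03, 10.15 and 11.04).

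Cirbp is an RNA-binding protein induced by mild cold that also binds transcripts of the clock. At day 5 it had 11.87, 12.31 and 12.91 in G6 tissue and 12.23, 12.39 and 12.88 in DC101 tissue, against 11.08, 11.25 and 11.48 in NT tissue. These lie 1.07 and 1.18 (SE 0.14 each) above NT, which was close to control tissue at 10.69, 11.23 and 11.45. The same order of groups was seen at day 60. It had 11.59, 11.82 and 12.27 with G6 and 12.34, 12.59 and 12.71 with DC101, against 10.61, 10.79 and 11.25 in NT tissue. These differences were 1.03 (SE 0.14) and 1.72 (SE 0.15). In these 4 comparisons the groups did not overlap. At day 20 G6 differed by 0.60 (SE 0.14), with overlap, and DC101 by 0.14 (SE 0.14). The other well-known cold-inducible RNA-binding gene, Rbm3, is read by probe sets with several symbols and was not analysed here.

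**Figure D2:**
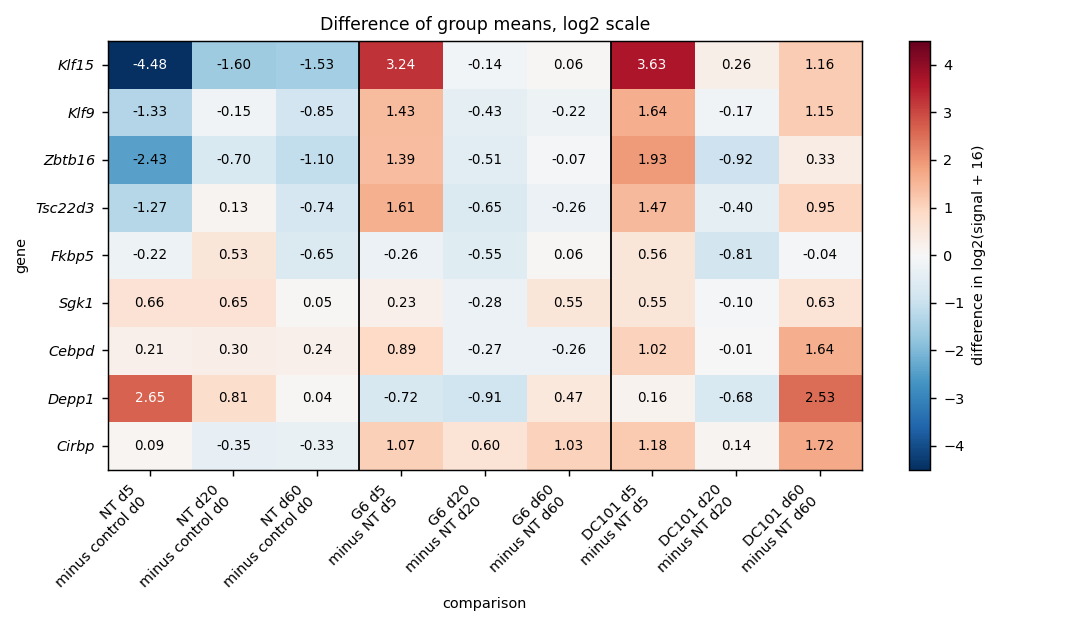
Differences of group means on the log2 scale for the 9 genes (rows) in the 9 comparisons (columns), NT against control on the left and each antibody against NT of its day to the right. The 3 Klf15 values that involve NT tissue at day 5 (-4.48, 3.24 and 3.63) rest on arrays below the filter level. The others run from -2.43 (Zbtb16, NT day 5 against control) to 2.65 (Depp1, NT day 5 against control).

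Across the 9 genes, the DC101 differences were positive for all 9 at day 5 and for 8 at day 60, with Fkbp5 at -0.04, and were negative for 7 at day 20. The G6 differences were positive for 7 at day 5, for 1 at day 20 (Cirbp) and for 5 at day 60. With DC101 the median of the 9 differences was 1.18 at day 5, -0.17 at day 20 and 1.15 at day 60, beside medians over all genes of -0.02, -0.00 and -0.01. With G6 it was 1.07, -0.43 and 0.06, beside 0.01, -0.01 and -0.02. In NT tissue against control it was -0.22, 0.13 and -0.65, beside 0.05, 0.05 and 0.08. The DC101 and G6 comparisons of a day share their NT arrays, and those NT arrays are also the ones set against control.

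The same 9 genes were counted in the model fitted over all 14718 genes (limma, Benjamini-Hochberg adjusted p under 0.05). Because the genes were chosen on these contrasts, the counts are printed beside the share of all genes called and nothing is read from them. In NT against control at day 5, 6 of 9 were called, where 52.8% of all genes were: 2 higher (27.9% of all genes) and 4 lower (24.9%). At day 20, 6 were called (41.1%), 3 higher (22.7%) and 3 lower (18.4%). At day 60, 5 were called (35.6%), 0 higher (18.7%) and 5 lower (16.9%). With G6 against NT at day 5, 7 were called (31.7%), 6 higher (16.7%) and 1 lower (15%). At day 20, 3 were called (9.98%), 1 higher (3.97%) and 2 lower (6.01%). At day 60, 2 were called (11.9%), 2 higher (2.64%) and 0 lower (9.26%). With DC101 against NT at day 5, 8 were called (11.8%), 8 higher (4.66%) and 0 lower (7.11%). At day 20, 2 were called (7.69%), 0 higher (2.44%) and 2 lower (5.25%). At day 60, 7 were called (11.6%), 7 higher (4.65%) and 0 lower (6.91%).

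Groups without overlap were counted in the same way. NT arrays of day 5 lay wholly below control for 4 genes, beside 12.8% of all genes, and wholly above for 1 (Depp1), beside 12.9%. At day 60 they lay wholly below for 1 (Zbtb16), beside 4.4%. At day 5, 6 genes lay wholly above NT with G6, beside 5.75% of all genes, and 6 with DC101, beside 1.28%. At day 60, 1 gene (Cirbp) did with G6, beside 0.034%, and 2 (Depp1 and Cirbp) with DC101, beside 0.795%.

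The counts of called genes differed in some other settings. The share of all genes called in those settings is not given, so nothing is read from these changes. With adjacent arrays averaged in pairs, 6 genes were called with G6 and 6 with DC101 at day 5, and 5 with DC101 at day 60. With both RNA ratios in the model, the NT count at day 60 was 0 of 9 and the DC101 count at day 60 was 4 of 9. Without the 6 arrays set apart in earlier work, the day 20 counts were 3 for NT, 1 for G6 and 1 for DC101. Array 72 was the highest of its group for 8 of the 9 genes, and without it the DC101 count at day 20 was 3. Its Actb ratio, 1.35, was the lowest of its group. The part of RNA quality and single arrays in the differences was not tested further.

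G6 and DC101 were also set against each other. The 9 genes were chosen with their levels in these groups known. Calls are again printed beside the share of all genes, and nothing is read from them. At day 5 G6 lay below DC101 for 8 of 9 genes, by 0.81 in Fkbp5 and 0.88 in Depp1, and these 2 were called lower, where 5.65% of all genes were. At day 20 the largest difference was 0.46 (SE 0.14), in Cirbp, and none of the 9 was past the threshold, where 0.245% of all genes were. At day 60, 6 of 9 were called lower with G6, where 21.9% of all genes were, and 2 (Depp1 and Cirbp) lay wholly below DC101, beside 2.17%. The largest were Depp1 (-2.06, SE 0.27), Cebpd (-1.90, SE 0.25) and Klf9 (-1.37, SE 0.21), while Fkbp5 (0.10, SE 0.18) and Sgk1 (-0.08, SE 0.16) were near 0. Doses differed between the agents, and at day 60 so did the Actb ratio, with medians of 2.22 in G6 and 1.302 in DC101 tissue.

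A list of 30 other glucocorticoid-inducible genes, none of them among the 9, was tested in the same model. The list too was chosen with earlier results known, so its counts and p-values are not independent of these data. In NT tissue at day 5, 10 rose and 10 fell against control, beside 27.9% and 24.9% of all genes, and the median difference was -0.02, beside 0.05 over all genes. With the RNA ratios as covariates 4 rose and 11 fell. Among those that fell were the sulfotransferase Sult1a1 (-2.19, SE 0.31, adjusted p = 1.41e-08), the muscle ubiquitin ligases Trim63 (-2.12, SE 0.55, adjusted p = 0.00077) and Fbxo32 (-1.88, SE 0.40, adjusted p = 4.54e-05), and the lipid droplet protein Plin4 (-2.05, SE 0.23, adjusted p = 2.08e-11). These 4 are named for the size of their differences, and none of the 10 that rose is named. Skeletal muscle and adipocyte markers also fell in that comparison (7 of 8 and 5 of 5), and their part was not tested. Trim63, Fbxo32 and Plin4 remained below control at days 20 and 60, by 1.56 to 1.89 on the log2 scale, all past the threshold. With the RNA ratios as covariates Trim63 and Fbxo32 missed the threshold at day 60. Over the whole list 6 rose and 6 fell at day 20, beside 22.7% and 18.4% of all genes, and 4 rose and 5 fell at day 60, beside 18.7% and 16.9%. These counts are near the shares over all genes.

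**Figure D3:**
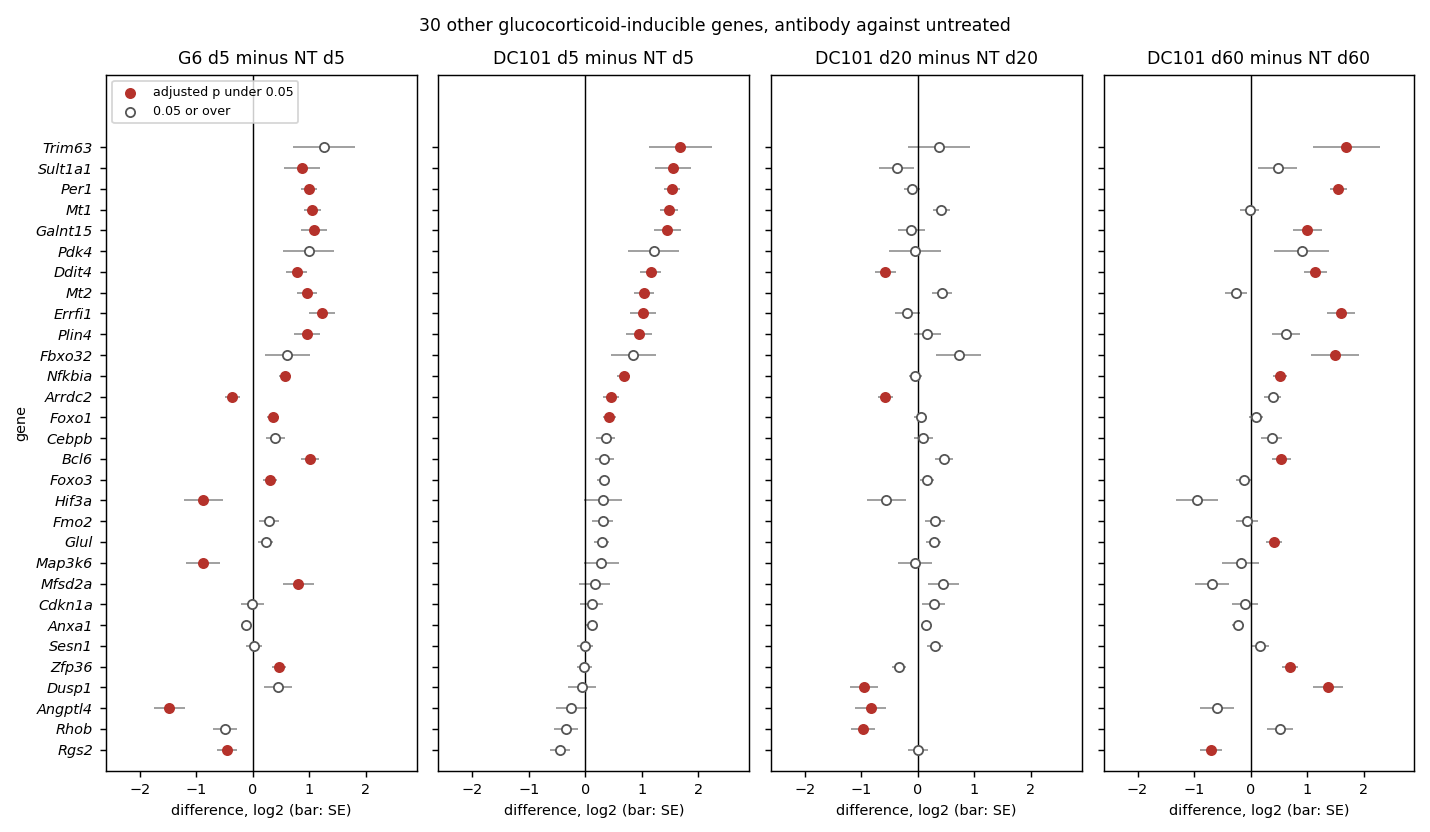
Difference from NT tissue of the same day on the log2 scale (x) for each of the 30 other glucocorticoid-inducible genes (y), with SE bars, for G6 at day 5 and DC101 at days 5, 20 and 60. Filled points pass an adjusted p of 0.05: 14 higher and 5 lower, 12 higher and 0 lower, 0 higher and 5 lower, and 11 higher and 1 lower in the 4 panels from left to right.

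With DC101 at day 5, 12 of the 30 rose against NT tissue and 0 fell, beside 4.66% and 7.11% of all genes, and the list median was 0.35, beside -0.02 over all genes. Per1, a clock gene with a direct glucocorticoid response, had 12.17, 12.30 and 12.65 with DC101 against 10.48, 10.82 and 11.35 in NT tissue, and rose by 1.53 (SE 0.14, adjusted p = 1.1e-12, 8 of 8 arrays). The metallothionein Mt1 had 14.42, 14.66 and 14.97 against 12.96, 13.18 and 13.55, and rose by 1.48 (SE 0.16, adjusted p = 6.84e-11). Neither gene's groups overlapped. Sult1a1 rose by 1.55 (SE 0.31, adjusted p = 0.00035), Galnt15 by 1.45 (SE 0.24, adjusted p = 7.83e-06) and Ddit4, an inhibitor of mTORC1, by 1.15 (SE 0.19, adjusted p = 6.7e-06). Trim63 rose by 1.68 (SE 0.55, adjusted p = 0.032).

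With G6 at day 5, 14 of the 30 rose and 5 fell, beside 16.7% and 15% of all genes, with a list median of 0.46, beside 0.01 over all genes. Errfi1, a feedback inhibitor of the EGF receptor, rose by 1.23 (SE 0.23, adjusted p = 1.9e-05), Galnt15 by 1.08 (SE 0.24), Mt1 by 1.06 (SE 0.16), the repressor Bcl6 by 1.02 (SE 0.16) and Per1 by 0.99 (SE 0.14, adjusted p = 6.55e-08), each in 8 of 8 arrays. Angptl4, a lipase inhibitor that glucocorticoids and hypoxia induce, fell by 1.48 (SE 0.28, adjusted p = 2.52e-05). The 5 that fell are near the share over all genes, and with adjacent arrays averaged 14 rose and 1 fell.

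At day 20 the list did not behave as at day 5. With DC101 0 of 30 rose and 5 fell, beside 2.44% and 5.25% of all genes: Rhob (-0.97, SE 0.22), the phosphatase Dusp1 (-0.95, SE 0.25), Angptl4 (-0.84, SE 0.28), Ddit4 (-0.58, SE 0.19) and Arrdc2 (-0.58, SE 0.14). Without the arrays set apart, which at that day are NT arrays 51 and 52, no gene of the list passed (limma). With G6 5 rose and 4 fell, beside 3.97% and 6.01%, led by Hif3a (-1.45, SE 0.34, adjusted p = 0.0037) and Mfsd2a (0.89, SE 0.28, adjusted p = 0.027), and without those arrays 0 passed. At day 60 with G6 Per1 rose (0.67, SE 0.14, adjusted p = 0.00089), Hif3a fell (-1.43, SE 0.34, adjusted p = 0.0034) and no other gene of the list passed.

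At day 60 with DC101, 11 of the 30 rose and 1 (Rgs2, at -0.70, SE 0.19) fell, beside 4.65% and 6.91% of all genes, with a list median of 0.41, beside -0.01. Errfi1 was 14.21, 15.42 and 15.75 with DC101 against 12.997, 13.42 and 14.45 in NT tissue, and rose by 1.60 (SE 0.24, adjusted p = 7.02e-06). Per1 rose by 1.55 (SE 0.15, adjusted p = 8.6e-12), Dusp1 by 1.37 (SE 0.27, adjusted p = 0.00049) and Ddit4 by 1.15 (SE 0.20, adjusted p = 7.14e-05), each in 6 of 6 arrays. Trim63 (1.70, SE 0.59, adjusted p = 0.048) and Fbxo32 (1.49, SE 0.43, adjusted p = 0.016) rose as well. Mt1 and Mt2, which rose with DC101 at day 5, were at -0.02 and -0.26 here and did not pass. With the RNA ratios as covariates 5 of the list rose and 1 fell: Per1 (1.61), Errfi1 (1.45) and Ddit4 (1.14) passed, and Dusp1 (0.78), Trim63 (0.29) and Fbxo32 (0.88) did not.

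The change of each antibody's difference between days was tested directly. The shares of all genes given with these changes count calls in either direction. For DC101 from day 5 to day 20 it was called in 8 of the 30 genes, all negative, where 1.81% of all genes were called, led by Sult1a1 (-1.93, SE 0.44), Ddit4 (-1.73, SE 0.26) and Per1 (-1.63, SE 0.20, adjusted p = 4.23e-08). For DC101 from day 20 to day 60 it was called in 11, of which 9 were positive (18.2% of all genes), with Dusp1 at 2.32 (SE 0.37), Errfi1 at 1.79 (SE 0.33) and Ddit4 at 1.73 (SE 0.27). For G6 from day 5 to day 20 it was called in 7, all negative (9.17%), and from day 20 to day 60 in Per1 alone, at 0.99 (0.0747%). The Per1 call of G6 from day 20 to day 60 was lost with adjacent arrays averaged and without the arrays set apart. Over the settings the negative calls from day 5 to day 20 ran from 4 to 9 with G6 and from 5 to 11 with DC101, and array weights brought 3 and 1 positive ones. For DC101 from day 20 to day 60 the positive calls ran from 7 to 12, and both negative ones were lost with adjacent arrays averaged and without the arrays set apart. Among the 9 genes, as a description only, the matching values from day 5 to day 20 included -2.26 (SE 0.37) for Tsc22d3 with G6 and -2.85 (SE 0.34) for Zbtb16 with DC101. For Depp1 with DC101 the value from day 20 to day 60 was 3.21 (SE 0.36).

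The receptor itself was measured with 5 of 7 listed genes of hormone reception and activation. All 5 fell in NT tissue at day 5, where 24.9% of all genes fell: Nr3c1 by 0.82 (SE 0.13, adjusted p = 3.07e-07), the mineralocorticoid receptor Nr3c2 by 1.76 (SE 0.28), the cortisone-reactivating enzyme Hsd11b1 by 1.05 (SE 0.21), the hormone-inactivating Hsd11b2 by 0.75 (SE 0.25) and the co-chaperone Fkbp4 by 1.04 (SE 0.13). At day 5 Nr3c1 had 12.75, 12.90 and 13.01 with G6 and 11.86, 12.52 and 13.01 with DC101, against 11.92, 12.09 and 12.32 in NT tissue. It rose with G6 by 0.79 (SE 0.13, adjusted p = 3.41e-06), and with DC101 the difference was 0.38 (SE 0.13, adjusted p = 0.0505), which missed the threshold. Control tissue had 12.65, 12.84 and 13.29, above every NT array of day 5. It rose with DC101 at day 60 by 0.47 (SE 0.14, adjusted p = 0.023), 0.19 and past no threshold with the RNA ratios as covariates, and fell with G6 at day 60 by 0.39 (SE 0.13, adjusted p = 0.043). At day 20 its differences were -0.05 with G6 and 0.02 with DC101. Nr3c2 rose at day 5 with G6 (1.39, SE 0.28) and DC101 (1.02, SE 0.28, adjusted p = 0.0089). The NT means at day 5 were 8.03 for Nr3c2 and 7.95 for Hsd11b2, below the filter level. Differences from those NT means are therefore uncertain in size.

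Other stress and clock genes were counted beside them. The shares of all genes that rose and fell were 27.9% and 24.9% in NT tissue at day 5, 16.7% and 15% with G6 at day 5, 4.66% and 7.11% with DC101 at day 5, 2.64% and 9.26% with G6 at day 60, and 4.65% and 6.91% with DC101 at day 60. Of 10 clock output genes, a list that also holds Per1, 7 fell and 1 rose in NT tissue at day 5. The falls were led by Dbp (-1.83, SE 0.21) and Per2 (-1.63, SE 0.16). The NT mean of Per2 at day 5, 8.06, was below the filter level, so the size of its fall is uncertain. Against NT at day 5 7 rose and 0 fell with G6, and 5 rose and 0 fell with DC101, where Nr1d1 (REV-ERB alpha) rose by 1.48 (SE 0.21). In NT tissue at day 60, 0 rose and 6 fell against control, beside 18.7% and 16.9% of all genes. Against that NT group 6 rose and 0 fell with DC101, and Per1 alone rose with G6. With DC101 Nr1d1 was at 1.70 (SE 0.23) and Dbp at 1.23 (SE 0.22). Of 5 clock genes of the opposite phase, 2 rose and 1 fell in NT tissue at day 5, and 2 rose and 0 fell at day 60. With either antibody 0 of these 5 were called at days 5 and 60. Of 9 heat shock genes 0 rose and 5 fell with DC101 at day 60, with Hsph1 at -0.70 (SE 0.14). With DC101 at day 5, 0 rose and 4 fell. In NT tissue against control, which is a different comparison, 0 rose and 5 fell at day 5, and 2 rose and 2 fell at day 60. With G6 against NT, 1 rose and 3 fell at day 5, and 0 rose and 2 fell at day 60. At day 20, 3 rose and 0 fell with G6, beside 3.97% and 6.01% of all genes. Of 8 fasting and FOXO genes, which share Trim63, Fbxo32, Pdk4 and Sesn1 with the glucocorticoid list, 4 rose with DC101 at day 5 and 3 at day 60. Among them Txnip, a brake on glucose uptake, rose by 1.26 (SE 0.16) and 0.87 (SE 0.17). Of 10 immediate early genes 7 rose and 2 fell in NT tissue at day 5, with Fos at 2.02 (SE 0.35). The hour of sampling is not given in the labels, and its part was not tested.

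Where a gene had several probe sets, most moved in the same direction, with sizes that differed. For Klf9 the mean levels of 4 of the other 6 probe sets followed the brightest over the 10 groups with r between 0.96 and 0.99. The second-dimmest (r = 0.59) gave -0.05 for G6 at day 5 where the brightest gave 1.43, and the dimmest was above the filter level on only 25 of 78 arrays (r = 0.52). The other Zbtb16 probe sets gave 1.38 and 0.13 for G6 at day 5 and 1.64 and 0.68 for DC101. The 4 Tsc22d3 probe sets were all positive in both day 5 comparisons, from 0.35 to 1.61, but the dimmest followed the brightest less closely over the 10 groups (r = 0.58). The second Depp1 probe set gave 2.15 for DC101 at day 60 and the second Cebpd probe set 0.46. At day 5 that Cebpd probe set gave 0.40 with G6 and 0.42 with DC101, where the brightest gave 0.89 and 1.02. For Fkbp5, the second probe set gave 0.47 in NT tissue at day 5 against -0.22 for the brightest, and the dimmest was above the filter level on 0 arrays and was not kept. Klf15, Sgk1 and Cirbp rest on 1 probe set each.

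**Figure D4:**
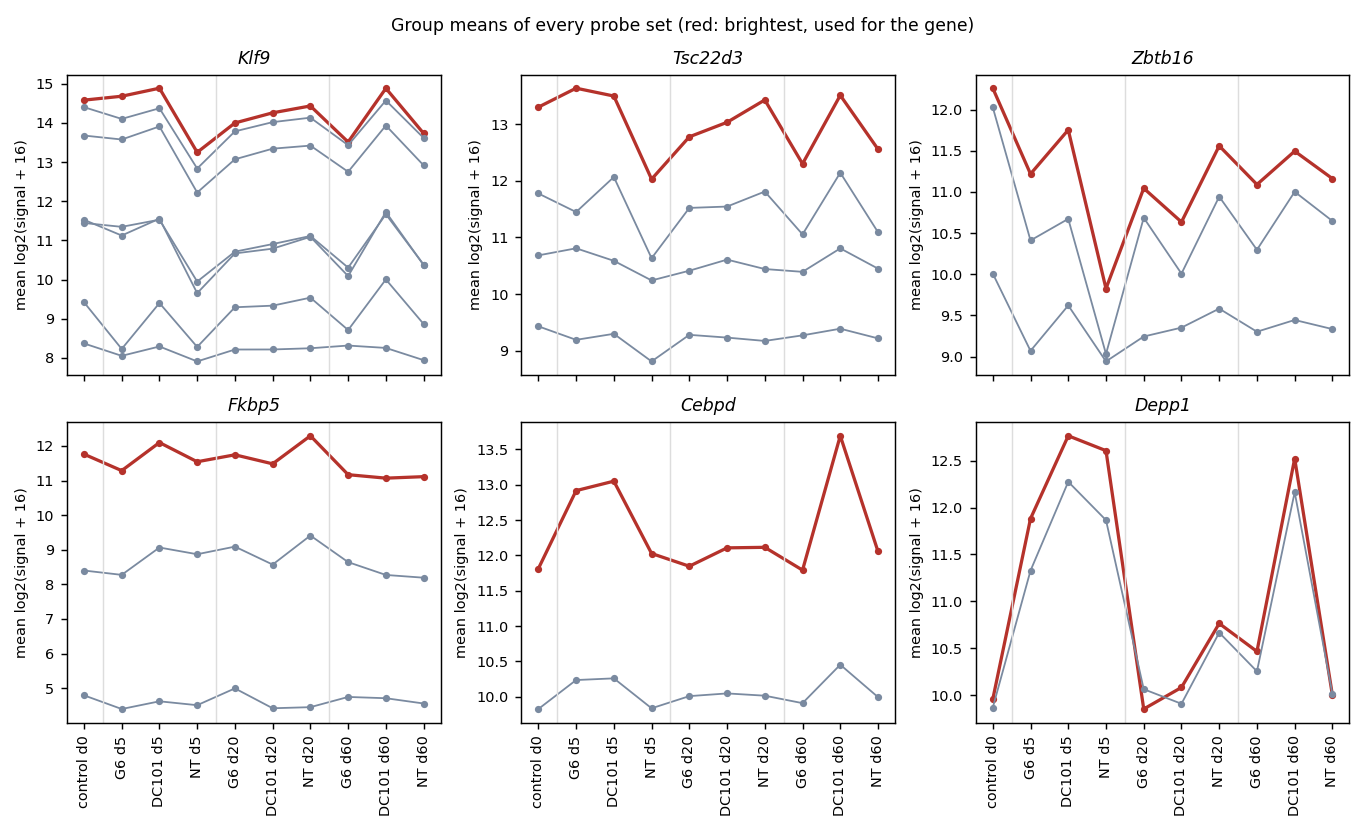
Mean log2(signal + 16) in each of the 10 groups (x) of every probe set of the 6 genes with more than 1, the brightest in red. The 2 Depp1 lines and 5 of the 7 Klf9 lines follow each other closely, and the 2 dimmest Klf9 lines do so less (r = 0.59 and 0.52 with the brightest).

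The covariation of the 9 genes is given as a description. Over the 10 group means Klf9 and Tsc22d3 correlated at r = 0.98, Klf15 and Zbtb16 at 0.89, Cebpd and Cirbp at 0.79, and Sgk1 and Depp1 at 0.77. Fkbp5 correlated with no other gene above 0.31. Over the 78 arrays with group means taken off, the highest were Klf9 with Zbtb16 (0.74), Klf9 with Tsc22d3 (0.70), Klf15 with Zbtb16 (0.65) and Tsc22d3 with Cebpd (0.65). Of the 36 pairs 27 were above 0 within groups. Arrays of a group share the tissue mixture and RNA quality of their piece of flank, which bears on every pair. Within groups the log2 Actb ratio correlated with the 9 genes at r from -0.40 (Klf15) and -0.38 (Tsc22d3) up to 0.14 (Sgk1).

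**Figure D5:**
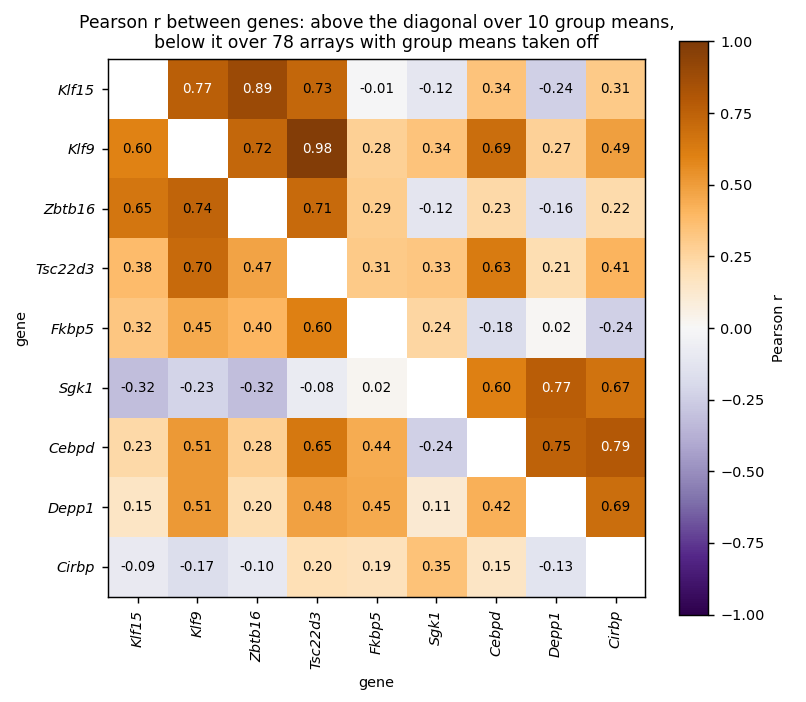
Pearson r between each pair of the 9 genes, over the 10 group means above the diagonal and over the 78 arrays with group means taken off below it. The highest values are Klf9 with Tsc22d3 (0.98) above the diagonal and Klf9 with Zbtb16 (0.74) below it.

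The genes most like each one were searched among the 14718. Over group means (n = 10) Klf9 was closest to Txnip (r = 0.95) and Il15ra (0.95), Tsc22d3 to Fam107a (0.93) and Txnip (0.93), Zbtb16 to Nr3c2 (0.89), Klf15 to Rd3 (0.94), Fkbp5 to Meox1 (0.89), Sgk1 to Map3k7 (0.93), Cebpd to Ppp1r15a (0.95), Depp1 to Inpp5k (0.95) and Cirbp to Tiparp (0.93). Within groups (n = 78) Klf15 was closest to Pxmp2 and Sdha (0.80 each), Klf9 to Dst (0.88), Zbtb16 to Pde4d (0.87), Tsc22d3 to Ulk2 (0.80) and Cebpd to Tmed10 (0.79). The values were lower for Fkbp5 with Mgat4b (0.71), Cirbp with Aff4 (0.68), Sgk1 with Edem3 (0.67) and Depp1 with Rasgrp2 (0.63). Each r is the highest of a search over many genes, and over 10 points such a search gives high values by itself.

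Cell type markers moved with some of these genes. The summed signal of 8 skeletal muscle markers at day 5 had a median (log2) of 18.72 with G6 and 18.68 with DC101, against 17.75 in NT tissue (17.29 to 18.08), and 5 and 0 of the 8 rose. In control tissue it was 19.12 (18.80 to 19.92), and 7 of the 8 fell in NT tissue at day 5. Adipocyte markers (5 measured of 7) stood at 13.29 in NT tissue at day 5, against 16.44 in control tissue, with all 5 fallen and 1, Lep, below the filter level on every NT array of that day. Over the 10 group means the muscle sum correlated with Klf9 at r = 0.83, Tsc22d3 at 0.80, Klf15 at 0.68 and Zbtb16 at 0.67, and with Cirbp at 0.16 and Depp1 at 0.003. Within groups the muscle sum correlated with Zbtb16 at r = 0.69, Klf15 at 0.57 and Klf9 at 0.55, and with Tsc22d3 at 0.11, Depp1 at 0.05 and Cirbp at -0.34. The adipocyte sum correlated with Klf15 at 0.57, and the macrophage sum with Cebpd at 0.61. At day 5 with G6, 3 of 4 hair follicle markers fell against NT, and the hair follicle sum correlated with Tsc22d3 at -0.58. Of 7 endothelial markers 7 rose in NT tissue at day 5 and 7 fell with G6 at day 5, and their sum correlated with Depp1 at 0.48. All 5 mammary epithelium markers, milk protein genes among them, fell in NT tissue at days 5, 20 and 60, with median differences from control of -5.50, -5.18 and -5.15, and their sum correlated over the 10 group means with Zbtb16 at 0.60 and Klf15 at 0.51, but within groups at -0.07 and 0.12. Of 5 keratinocyte markers 4 rose in NT tissue at day 5 and 3 rose with G6 at day 5. Of 5 fibroblast markers 1 rose and 3 fell in NT tissue at day 5, and 3 rose with G6 and 2 with DC101 at day 5. At day 60 with DC101 none of the measured markers of muscle, adipocyte, endothelium or macrophage was called against NT (limma). The muscle markers had a median difference of 0.69 there, and the NT muscle sum at day 60 was widely spread, from 15.10 to 19.39. With G6 at day 60, 4 of 5 macrophage markers fell against NT, with a median difference of -0.79, where 9.26% of all genes fell. The part of the tissue mixture in these differences was not tested.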

How the data were processed

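The deposited table holds, for 78 arrays, linear MAS5 signal intensity for each probe set, computed by the authors in GCOS 1.3, per the submitters' processing notes. The mean of the middle 96% of signals was 1500 on every array, and array medians ran from 454.85 to 582.58. The genome build is not given in the sources used here. Arrays give no counting depth, and their number limits the precision.

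Signals were taken as log2(signal + 16). Single-symbol probe sets (34958 of 45101; 932 had several symbols and 9211 none) were kept where the signal passed 331, the 40th percentile, on at least 6 arrays, which left 26696. The brightest probe set of each gene left 14718 genes. One limma (3.58.1, R 4.3.3) model with an intensity trend was fitted over all 10 groups, two-sided, with Benjamini-Hochberg adjustment over all genes and a threshold of 0.05. Fold bounds were taken against the filter level. The model was tested on simulated data. Alternatives were no filter, pseudocounts of 1 and 64, the mean of kept probe sets, quantile normalization, array weights, 2-group fits, the Actb and Gapdh 3' to 5' log ratios as covariates, adjacent arrays averaged in pairs, and arrays left out.

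The 9 genes, the lists and the markers were chosen with earlier results of these data known. List genes named are up to 6 past the threshold with the largest differences in a comparison, with Nr3c1 always, and the 3 genes most like each of the 9. Other genes printed in the text were chosen after their values were seen.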

Additional observations from a re-analysis of the deposited data

Results flagged for a closer look

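Of 90 sets of arrays (9 genes in 10 groups), 2 held 1 array far from the rest, and chance alone flags about 1 in 20. Fkbp5 in DC101 tissue at day 20 was 12.88 on array 72, against 11.65 on the next, and Depp1 in DC101 tissue at day 60 was 11.82 on array 93, against 12.46 on the next.

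In 3 genes every array lay on opposite sides of the mean compared with at different days. The difference between the days was not tested. Fkbp5 in NT tissue against control was 0.53 at day 20 and -0.65 at day 60. Cebpd with G6 against NT was 0.89 at day 5 and -0.27 at day 20. Depp1 with G6 against NT was -0.91 at day 20 and 0.47 at day 60. Without the arrays set apart in earlier work, the day 20 differences were -0.15 for Cebpd, with 6 of 8 G6 arrays below the NT mean, and -0.66 for Depp1, with 7 of 8, so neither would be listed here. Fkbp5 stayed on opposite sides, at 0.31 and -0.59, in 6 of 6 arrays each.

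In the list of 30 other glucocorticoid-inducible genes, the antibody difference changed between days in these tests (limma, adjusted p under 0.05). For G6, day 20 minus day 5 was -1.47 in Errfi1, -0.54 in Foxo1, -0.51 in Nfkbia, -1.67 in Sult1a1, -1.13 in Ddit4, -1.13 in Galnt15 and -1.31 in Per1, and day 60 minus day 20 was 0.99 in Per1. For DC101, day 20 minus day 5 was -1.21 in Errfi1, -0.73 in Nfkbia, -1.07 in Mt1, -1.93 in Sult1a1, -1.73 in Ddit4, -1.03 in Arrdc2, -1.57 in Galnt15 and -1.63 in Per1. For DC101, day 60 minus day 20 was 1.79 in Errfi1, -0.70 in Rgs2, 0.57 in Nfkbia, -1.14 in Mfsd2a, 1.73 in Ddit4, 0.97 in Arrdc2, 1.12 in Galnt15, 2.32 in Dusp1, 1.49 in Rhob, 1.65 in Per1 and 1.03 in Zfp36. The calls of Per1 with G6 from day 20 to day 60, and of Rgs2 and Mfsd2a with DC101, were lost with adjacent arrays averaged and without the arrays set apart.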

How the results depend on the processing

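The median difference of the 9 genes stayed within its spread between arrays (0.32) in 89 of 91 recomputations. With RNA ratios as covariates it was -0.23 in place of -0.65 (NT day 60 against control) and 0.74 in place of 1.15 (DC101 day 60 against NT). Medians near 0 changed sign: the NT median at day 5 was 0.09 with mean probe sets, and at day 20 -0.08 with mean probe sets and -0.09 without the arrays that stood apart. The G6 median at day 60 was -0.16 without them. Of the 30 other genes, the number called stayed within 1.5 times in 77 of 91 recomputations. For NT day 60 it was 14 in place of 9 with array weights. For G6 day 20 it was 2 in place of 9 with only the 2 groups, 2 with adjacent arrays averaged and 0 without the arrays that stood apart. For G6 day 60 it was 1 in place of 2 with mean probe sets, 5 with array weights, 0 with only the 2 groups and 1 with RNA ratios. For DC101 day 20 it was 1 in place of 5 with only the 2 groups, 2 with RNA ratios, 1 with adjacent arrays averaged, 0 without the arrays that stood apart, and 3 without array 72, a setting chosen after seeing the data. For DC101 day 60 it was 6 in place of 12 with RNA ratios. The cause was not tested. Signs flagged as reversed were those of Klf9 with G6 at day 5 by its second-dimmest probe set (-0.052) and of Fkbp5 by its dimmest, which was not kept (-0.34 in NT tissue at day 20, 0.54 with G6 at day 20). With mean probe sets they were Btg2 with G6 at day 5 (-0.021), Fkbp4 in NT tissue at day 20 (0.19) and Sesn1 in NT tissue at day 5 (-0.013). Other kept probe sets also differed in sign from the brightest, among them Fkbp5 in NT tissue at day 5 (0.47 against -0.22). Tsc22d3 did so in NT tissue at day 20 (-0.24 and -0.26 against 0.13) and with G6 at day 20 (0.11 against -0.65). Klf9 did so with G6 at day 60 (0.37 against -0.22). No paired analysis was possible because the running numbers in the titles are not shared between groups.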
